A study of Triticum aestivum with 15 samples.

Results

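The genes described here are 35 gene models of bread wheat (Triticum aestivum) cultivar Fielder that were abundant in iron-deficient roots, gave no read in leaves sampled up to day 7 without iron, and were read in the upper leaves of every plant on day 11. They were chosen by those levels. Levels are given as CPM, the count of a gene scaled to a library total of 1000000. A gene was taken if it was a high-confidence model with a mean of 100 CPM or more in roots, 0 counts in the 9 leaf libraries of days 0, 1 and 7, and at least 1 count in each day 11 leaf library. Of 269207 models in the table, 107836 were high-confidence and 1144 of those reached 100 CPM in roots. Of the 1144, 82 were at 0 in the 9 earlier leaf libraries, and 35 of the 82 were read in all 3 day 11 leaf libraries. Because the levels in leaves and roots chose the genes, those levels are given as a description and no test between these groups is applied to them.

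All plants were wild type and grew in hydroponic boxes, with 50 µM iron for 12 days and then with 0 µM iron for 11 days. The 5 groups of 3 libraries were the first leaf on day 0 before iron was withdrawn, the first leaf on day 1 without iron, the third leaf on day 7, leaves 3 to 5 on day 11 (1 sample per plant, called upper leaves), and day 11 roots. The same 3 numbers recur in the column names of each group, and libraries of replicate 1, 2 or 3 are called plant 1, 2 or 3. That same-numbered libraries come from 1 plant is inferred from the recurring numbers. No iron-replete library of days 1, 7 or 11 and no root library of another day entered the analysis, so the time without iron, plant age and leaf position cannot be told apart. Library totals ran from 15434838 to 25552816 counts, and that of plant 3 on day 11 held 19865687 counts in leaves, against 20428369 and 21386369 in plants 1 and 2. In bulk tissue, a change in the number of cells that express a gene and a change in RNA per cell cannot be told apart.

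Grasses take up iron by secreting mugineic acids, iron chelators that are made from nicotianamine, and by importing the iron complexes into the root. Nicotianamine also carries iron within leaves and in the phloem, and much of the machinery for both steps is known to be raised in roots when iron is scarce. Bread wheat is hexaploid, so that a gene often has copies at like places on the A, B and D chromosome of a group. The identifiers give the chromosome and the order of models along it, and the number in an identifier rises in steps of 100 from 1 high-confidence model to the next. They give no name, and the RefSeq gene table at hand held 0 of the 269207, so no function is stated for any gene below, no list by function was applied, and the tissue labels could not be set against named marker genes.

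The 35 genes made up 0.528%, 0.603% and 0.171% of all counts in the day 11 leaves of plants 1, 2 and 3, a mean of 0.434% ± 0.231 (SD, n = 3). In roots they made up 4.18%, 4.22% and 3.46%, a mean of 3.95% ± 0.431 (SD, n = 3). In the 9 earlier leaf libraries, which held 186713905 counts together, they had none. A count of 0 over those libraries allows up to 3 counts, or 0.0161 CPM, and covers counting error only. Against that floor the mean day 11 leaf levels were at least 27.3-fold to at least 29508-fold higher, with a median bound of 6472-fold. These bounds take the leaf means as they stand and leave out the spread between plants. The lowest was that of TraesCS1A02G194200, with 1.08, 0.187 and 0.0503 CPM in the leaves of plants 1, 2 and 3.

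Day 11 leaf levels covered a wide range, with means from 0.438 to 474 CPM and a median of 104 CPM. Of the 35 genes, 32 averaged at least 1 CPM, 24 at least 50 CPM and 9 at least 200 CPM. Root means ran from 107 to 4115 CPM with a median of 613 CPM. Genes with a high root level tended to have a high leaf level (Spearman's rho = 0.62 over the 35 genes, which share libraries and of which copies may share reads). CPM are not corrected for gene length, so levels of different genes are not compared as transcript numbers, whereas the leaf level of a gene as a percent of its own root level does not depend on length.

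**Figure D1:**
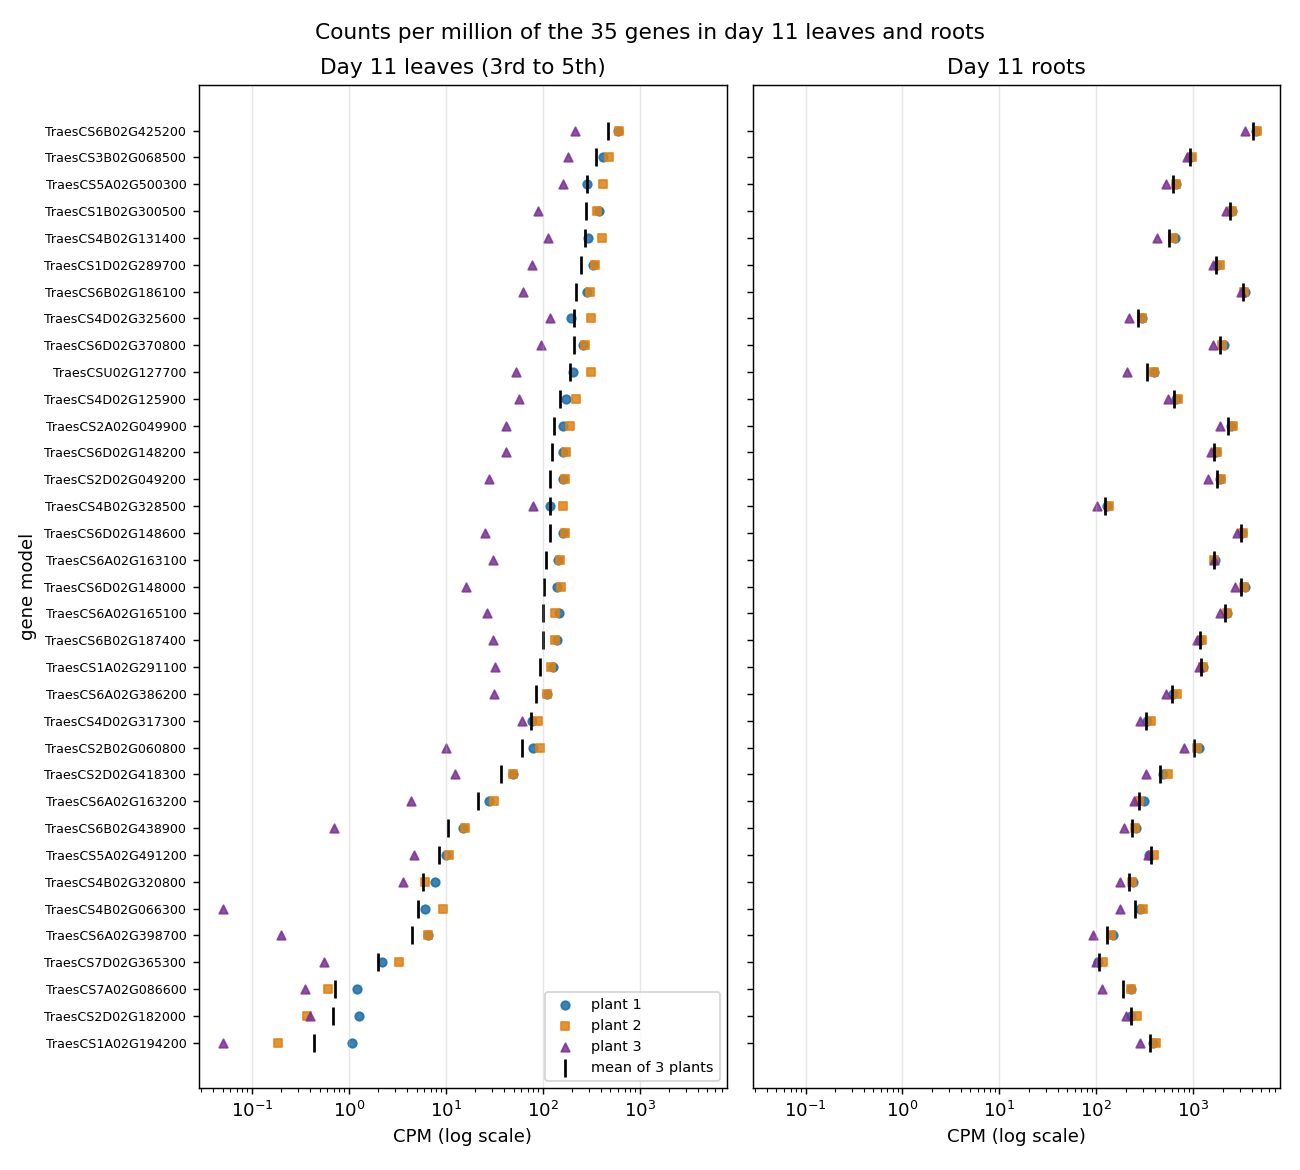
CPM (log scale) of each of the 35 genes in day 11 leaves (left) and day 11 roots (right), 1 symbol per plant and a tick for the mean of 3 plants, ordered by the mean leaf level. The leaf means run from 0.438 to 474 CPM, the root means from 107 to 4115 CPM, and the leaf symbols of plant 3 lie lowest for 34 of the 35 genes.

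The highest leaf level belonged to TraesCS6B02G425200 on chromosome 6B. It had 597, 608 and 217 CPM in the day 11 leaves of plants 1, 2 and 3 and 4458, 4479 and 3409 CPM in their roots. It was also the gene with the highest root level, at 4115 ± 612 CPM beside 474 ± 222 CPM in leaves (SD, n = 3 each). TraesCS3B02G068500 on 3B followed in leaves, with 414, 480 and 182 CPM there and 928, 958 and 856 CPM in roots. TraesCS5A02G500300 on 5A had 288, 415 and 162 CPM in leaves, and 655, 667 and 518 CPM in roots. In each of these genes all leaf values lay below all root values.

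The next levels in leaves were those of TraesCS1B02G300500 (278 ± 163 CPM), TraesCS4B02G131400 (270 ± 147 CPM), TraesCS1D02G289700 (251 ± 150 CPM), TraesCS6B02G186100 (220 ± 137 CPM) and TraesCS4D02G325600 (209 ± 97.2 CPM; SD, n = 3 each). Between neighbours in this order the difference of the means was smaller than the SD of either gene. The SD holds the low values of plant 3, which all of them share. TraesCS1B02G300500 lay above TraesCS1D02G289700 in all 3 plants, at 376, 367 and 90.1 CPM against 333, 342 and 77.4 CPM, and TraesCS1D02G289700 lay above TraesCS6B02G186100 in all 3, whereas TraesCS4B02G131400 lay above TraesCS1B02G300500 in plants 2 and 3 and below it in plant 1.

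The genes also differed in the leaf level as a percent of the root level. Its median over the 35 genes was 7.64%, with quartiles of 3.68% and 14.2%. It was under 10% for 22 genes and 20% or more for 8. The order of the genes by this percent was similar in every plant (Spearman's rho = 0.99 between plants 1 and 2, 0.95 between plants 1 and 3 and 0.93 between plants 2 and 3, over the same 35 genes). It was not tied to the root level itself (rho = 0.15).

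At the top stood TraesCS4B02G328500 on 4B, with 119, 160 and 79.7 CPM in day 11 leaves and 129, 136 and 102 CPM in roots. Its leaf level was 92.0%, 117% and 78.2% of the root level in plants 1, 2 and 3, and the leaf and root values overlapped. TraesCS4D02G325600 on 4D had 198, 312 and 118 CPM in leaves and 297, 298 and 218 CPM in roots, which overlapped too. Its percentages were 66.6%, 105% and 54.3%. These were the only genes among the 35 whose leaf level exceeded the root level in a plant, and in both that was plant 2.

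TraesCSU02G127700, which is assigned to no chromosome, had 203, 315 and 52.8 CPM in leaves and 394, 394 and 208 CPM in roots, so that its leaf mean was 57.3% of its root mean. TraesCS4B02G131400 had 291, 405 and 113 CPM in leaves and 643, 623 and 418 CPM in roots, or 48.1%. Leaf and root values of TraesCSU02G127700 overlapped, and those of TraesCS4B02G131400 did not.

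At the other end, 3 genes had less than 1% of their root level in leaves. TraesCS1A02G194200 had 22, 4 and 1 counts in the leaves of plants 1, 2 and 3 (1.08, 0.187 and 0.0503 CPM), against 379, 409 and 282 CPM in roots, or 0.123%. TraesCS2D02G182000 had 26, 8 and 8 counts (1.27, 0.374 and 0.403 CPM) in leaves, against 229 ± 29.7 CPM in roots (SD, n = 3). TraesCS7A02G086600 had 1.22, 0.608 and 0.352 CPM in leaves, against 190 ± 66.4 CPM in roots (SD, n = 3), or 0.384%. The fourth lowest was TraesCS7D02G365300, with 2.2, 3.27 and 0.554 CPM in leaves and 107 ± 8.58 CPM in roots (SD, n = 3), or 1.88%. With so few counts the leaf values of these genes are imprecise, and their mean leaf levels were the 4 lowest of the 35. In a single library, TraesCS4B02G066300 met the rule as narrowly as TraesCS1A02G194200, with 1 count in plant 3. TraesCS6A02G398700 had 4 counts there.

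**Figure D2:**
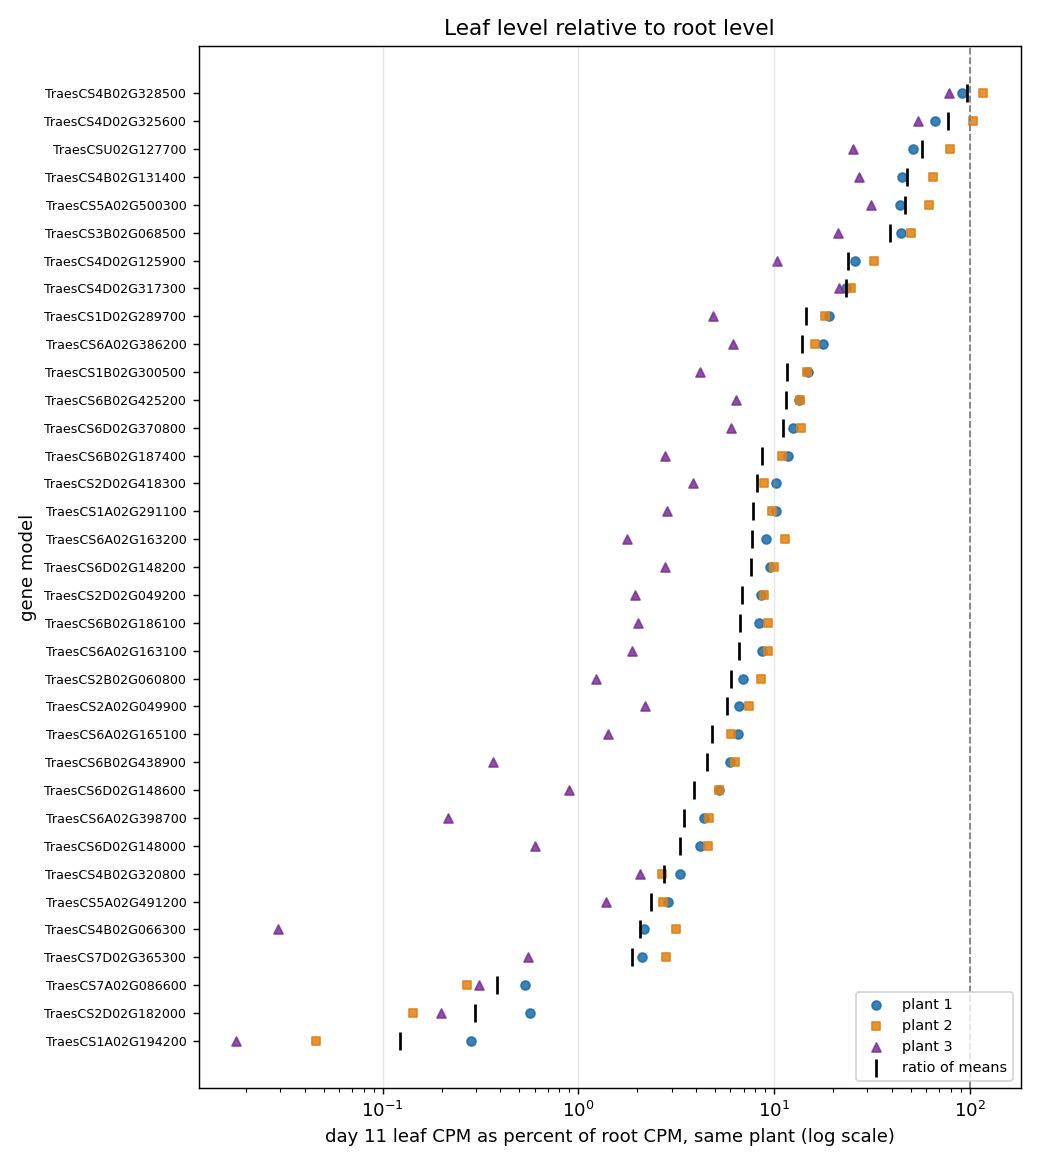
Day 11 leaf CPM as a percent of root CPM in the same plant (log scale) for each of the 35 genes, 1 symbol per plant, with a tick for the ratio of the means and a dashed line at 100%. The ratio of the means runs from 0.123% to 97.6%, and the symbols of plant 2 cross the line for the 2 uppermost genes.

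The leaves of the 3 plants differed strongly in these genes. Plant 3 had the lowest leaf level for 34 of the 35 genes. The exception was TraesCS2D02G182000, with 8 counts each in plants 2 and 3. Plants 1 and 2 lay within 1.5-fold of each other for 29 genes. The median leaf level over the 35 genes was 141 CPM in plant 1, 151 CPM in plant 2 and 30.8 CPM in plant 3, and the median percent of the root level was 9.14%, 9.37% and 2.2%. Plant 3 was at a median of 0.243 of the mean of plants 1 and 2, with a range from 0.00647 to 0.726. The low extreme was TraesCS4B02G066300 on 4B, with 125, 202 and 1 leaf counts in plants 1, 2 and 3 and 252 ± 68.4 CPM in roots (SD, n = 3). The high extreme was TraesCS4D02G317300 on 4D, with 77.5, 90.3 and 60.9 CPM in leaves and 333, 362 and 282 CPM in roots.

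Most other genes of the same libraries were not low in plant 3. Of the 30 genes among the 35 that averaged 5 CPM or more in day 11 leaves, 27 (90.0%) stood below 0.5 of the mean of plants 1 and 2. Of all 27028 high-confidence genes at that level 512 (1.89%) did, and their median was 0.986. Among the other genes with 100 CPM or more in roots it was 71 of 984 (7.22%), with a median of 0.962. The roots of plant 3 were lower as well, though by less. The 35 genes had a median of 0.792 of the mean of plants 1 and 2 there, and plant 3 was the lowest for 34 of them, beside a median of 1.00 for all high-confidence genes at 5 CPM or more in roots. Why plant 3 was lower was not tested. With 3 plants these values describe the plants sampled.

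**Figure D3:**
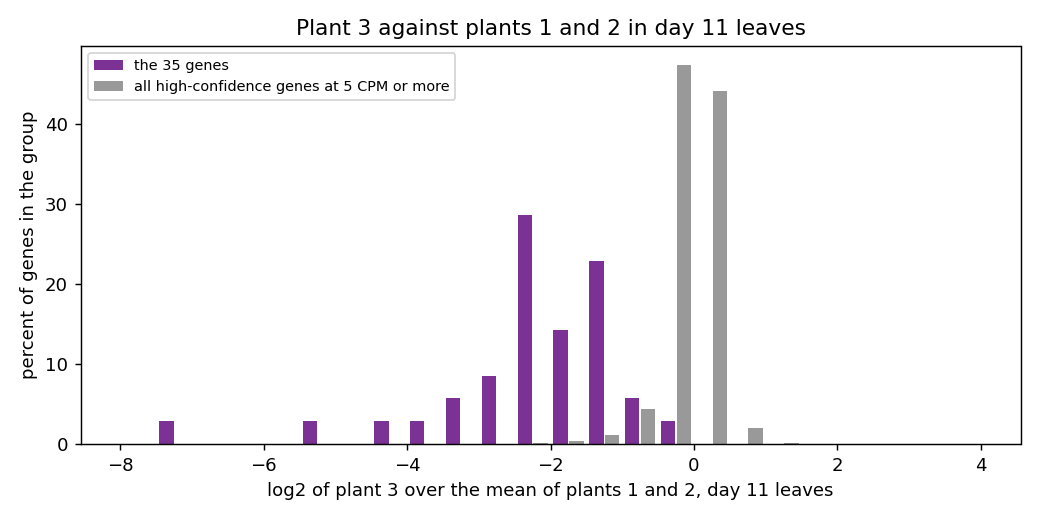
Histogram of the log2 ratio of plant 3 over the mean of plants 1 and 2 in day 11 leaves, as percent of the genes in each set, for the 35 genes (purple) and all 27028 high-confidence genes at 5 CPM or more (grey). The grey bars centre near 0, where the median ratio is 0.986, and the purple bars lie to the left, with a median ratio of 0.243.

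The 35 genes lay on 15 chromosomes and on every subgenome, with 11 on A, 11 on B, 12 on D and 1 on no chromosome. Group 6 chromosomes held 13 of them and group 4 chromosomes 7. The group 6 genes made up 38.8% of the summed leaf CPM of the 35 and 58.8% of their summed root CPM. For group 4 it was the other way round, with 19.3% of the leaf sum and 6.01% of the root sum. Among the 82 genes high in roots and at 0 in earlier leaves, from which the 35 came, 20 lay on group 6 and 17 on group 4. Genes called the A, B or D copy below are genes at like relative positions. The identifiers give no homology, and whether these genes are copies was not tested. Copies on A, B and D and neighbouring duplicates can share reads. The handling of reads with several matches is not stated in the labels or notes, so the split of counts within the sets below is uncertain.

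**Figure D4:**
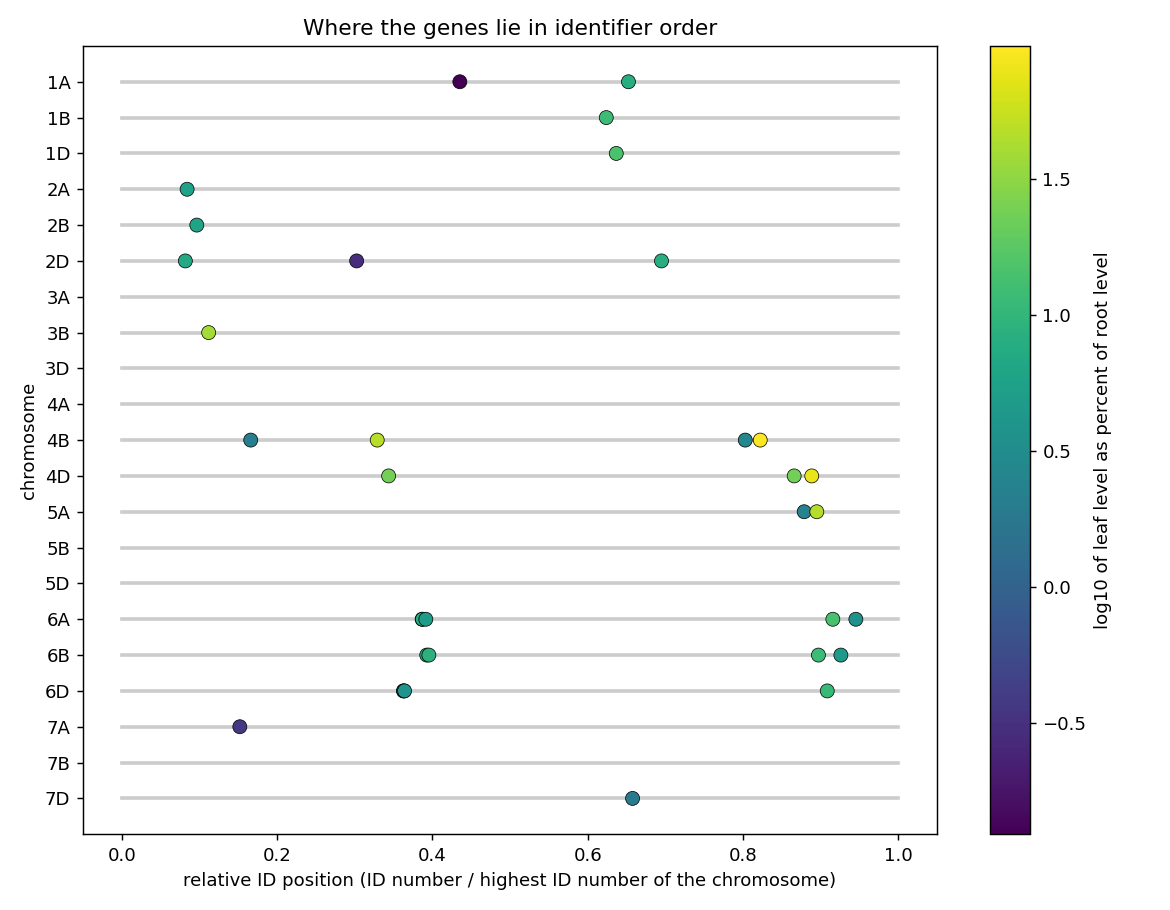
The 34 of the 35 genes that have a chromosome, placed by identifier number divided by the highest high-confidence number of the chromosome, 1 line per chromosome, coloured by the log10 of the leaf level as percent of the root level. Genes line up at like positions on 1A, 1B and 1D, on 2A, 2B and 2D, and at 2 places on 6A, 6B and 6D, where the 6D genes of the inner place lie slightly to the left.

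Nearer the middle of the group 6 chromosomes lay 8 of the genes, at relative positions of 0.387 to 0.395 on 6A and 6B. On 6D they lay at 0.363 to 0.364, just outside the window of 0.02 that was used to link copies. TraesCS6D02G148000, TraesCS6D02G148200 and TraesCS6D02G148600 formed the largest group of close neighbours, within 600 identifier numbers that hold 6 models. TraesCS6A02G163100 and TraesCS6A02G163200 are adjacent, and TraesCS6A02G165100 lies 1900 numbers further. On 6B, TraesCS6B02G186100 and TraesCS6B02G187400 were 1300 numbers apart. Within these intervals no other model reached 100 CPM in roots.

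On 6D all 3 genes had root levels above the median of the 35. TraesCS6D02G148000 had 141, 155 and 16.1 CPM in leaves and 3383, 3345 and 2658 CPM in roots. TraesCS6D02G148600 had 164, 168 and 25.6 CPM in leaves and 3137, 3212 and 2844 CPM in roots. TraesCS6D02G148200, between them, had 162, 175 and 41.8 CPM in leaves and 1701, 1749 and 1505 CPM in roots. The leaf level of TraesCS6D02G148200 was 7.64% of the root level, against 3.89% for TraesCS6D02G148600 and 3.32% for TraesCS6D02G148000, and the 3 genes kept this order in all 3 plants.

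On 6A and 6B the root levels ranged more widely. TraesCS6A02G163100 had 109 ± 67.5 CPM in leaves and 1635 ± 23.8 CPM in roots (SD, n = 3 each). Its neighbour TraesCS6A02G163200 had 21.3 ± 14.8 CPM in leaves and 276 ± 31.8 CPM in roots, and TraesCS6A02G165100 had 102 ± 65.5 and 2100 ± 197 CPM (SD, n = 3 each). On 6B, TraesCS6B02G186100 had 287, 309 and 62.6 CPM in leaves and 3406, 3301 and 3092 CPM in roots. TraesCS6B02G187400 had 101 ± 61.6 CPM in leaves and 1169 ± 71.6 CPM in roots (SD, n = 3 each). Over the 5 genes on 6A and 6B the leaf level was 4.84% to 8.68% of the root level. Of the 35 genes TraesCS6A02G163100 had the smallest spread between plants in roots, with a coefficient of variation of 1.45%.

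A second set lay near the far end of the same chromosomes in identifier order. TraesCS6A02G386200, TraesCS6B02G425200 and TraesCS6D02G370800 sat at relative positions of 0.916, 0.897 and 0.909. TraesCS6A02G386200 had 112, 111 and 31.8 CPM in leaves and 623, 681 and 516 CPM in roots. TraesCS6D02G370800 had 259, 270 and 95.9 CPM in leaves and 2062, 1969 and 1597 CPM in roots. The B copy was thus the highest and the A copy the lowest in both tissues and in every plant. Relative to the root the leaf levels were close, at 14.0% for the A copy, 11.5% for the B copy and 11.1% for the D copy, and their order changed from plant to plant.

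Further along lay a second, lower gene on each of these chromosomes. TraesCS6A02G398700 had 134, 140 and 4 leaf counts in plants 1, 2 and 3 and 128 ± 30.0 CPM in roots (SD, n = 3). TraesCS6B02G438900 had 309, 337 and 14 leaf counts and 232 ± 34.2 CPM in roots (SD, n = 3). On 6D the gene at the like position, TraesCS6D02G382900, had 45, 51 and 0 leaf counts and 257 ± 58.8 CPM in roots (SD, n = 3), and the 0 in plant 3 keeps it out of the 35. It was singled out after its values were seen. In all 3 plant 3 had less than 0.05 of the mean of plants 1 and 2 in leaves, so the absence of TraesCS6D02G382900 from the list rests on the library of plant 3.

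Group 1 held a set with 1 gene on each subgenome. TraesCS1A02G291100 had 129, 123 and 32.1 CPM in leaves and 1250, 1251 and 1134 CPM in roots. TraesCS1B02G300500 had 376, 367 and 90.1 CPM in leaves and 2513, 2487 and 2147 CPM in roots. TraesCS1D02G289700 had 333, 342 and 77.4 CPM in leaves and 1734, 1872 and 1577 CPM in roots. The A copy was the lowest in both tissues of every plant. The leaf level was 14.5% of the root level for the D copy, 11.7% for the B copy and 7.81% for the A copy, and this order held in all 3 plants.

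Group 2 held another set of that kind near the start of the chromosomes. TraesCS2A02G049900 had 160, 192 and 41.4 CPM in leaves and 2425, 2559 and 1880 CPM in roots. TraesCS2B02G060800 had 78.9, 93.8 and 9.97 CPM in leaves and 1140, 1092 and 809 CPM in roots. TraesCS2D02G049200 had 160, 171 and 27.7 CPM in leaves and 1876, 1913 and 1429 CPM in roots. The B copy was the lowest in both tissues of every plant. The leaf levels of 5.73%, 6.0% and 6.88% of the root level for the A, B and D copies did not keep an order over the plants.

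On group 4, TraesCS4B02G131400 and TraesCS4D02G125900 lay at like positions. TraesCS4D02G125900 had 173, 223 and 56.4 CPM in leaves and 662, 689 and 545 CPM in roots. Its leaf level was 23.8% of the root level, against 48.1% for the B copy, and the B copy was higher in all 3 plants. No member on 4A accompanied them.

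Genes in another arrangement on 4B, 4D and 5A were noticed after their values were seen. Each chromosome held a gene with a high leaf share 7700 to 9100 identifier numbers beyond a gene with a lower one. It is long known that the ends of wheat chromosomes 4A and 5A have exchanged segments, so that genes near the end of 4B and 4D can have their A copy on 5A. Whether these genes are such copies was not tested. The first genes were TraesCS4B02G320800, TraesCS4D02G317300 and TraesCS5A02G491200. TraesCS4B02G320800 had 7.83, 6.17 and 3.62 CPM in leaves and 214 ± 34.8 CPM in roots (SD, n = 3). TraesCS5A02G491200 had 10.1, 10.7 and 4.73 CPM in leaves and 363 ± 29.2 CPM in roots (SD, n = 3). The leaf levels of the genes on 4B and 5A were 2.74% and 2.34% of the root level, whereas that of the 4D gene was 23.4%, above both in every plant. The second genes were TraesCS4B02G328500, TraesCS4D02G325600 and TraesCS5A02G500300, at 97.6%, 77.2% and 47.0% of the root level, and this order held in all 3 plants.

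The remaining genes stood alone in identifier order. TraesCS2D02G418300 on 2D had 49.8, 49.3 and 12.5 CPM in leaves and 455 ± 118 CPM in roots (SD, n = 3). TraesCS3B02G068500, TraesCSU02G127700 and the low genes TraesCS1A02G194200, TraesCS2D02G182000, TraesCS4B02G066300, TraesCS7A02G086600 and TraesCS7D02G365300 likewise had no partner in the list within 1000 identifier numbers or at a like position of the same group. For TraesCSU02G127700 no position can be given. Some of the others had a root-abundant gene outside the list at a like position, singled out after its values were seen. TraesCS4D02G065300, by TraesCS4B02G066300, had 65, 14 and 0 day 11 leaf counts in plants 1, 2 and 3. TraesCS2A02G174600, by TraesCS2D02G182000, had 22, 3 and 6, and missed the list by 1 count in an earlier leaf library.

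The margins of the rule show how the list was bounded. The members closest above 100 CPM in roots were TraesCS7D02G365300, at 107 CPM, and TraesCS4B02G328500, at 123 CPM. Closest below it were TraesCS2B02G201000, at 80.7 CPM with 8, 3 and 1 leaf counts, and TraesCS3B02G068400, at 77.5 CPM with 363, 331 and 70 leaf counts. A further 6 genes missed the list only by 1 count in an earlier leaf library. The highest of those in leaves was TraesCS6A02G093000 on 6A, with 6457, 7110 and 2163 day 11 leaf counts and a leaf level of 20.9% of the root level. The next was TraesCS5A02G549900, with 650, 923 and 74 counts and 6.69%.

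The 47 genes that were high in roots and at 0 in earlier leaves but not read in every day 11 leaf library had far lower leaf levels. This followed largely from the choice, since a gene with 0 counts in a day 11 leaf library was placed among the 47. Their highest mean was 5.08 CPM and their median leaf level was 0.0448% of the root level. Their root levels were lower too, with a median of 156 CPM and a range from 101 to 647 CPM. Of the 47, 28 were read in the leaves of plant 1, 7 in plant 2 and 5 in plant 3, and 16 had 0 counts in all 12 leaf libraries. TraesCS1B02G239200, the highest of the 16 in roots, stood at 530.5 ± 61.3 CPM there (SD, n = 3). Genes high in roots and at 0 in earlier leaves thus included some with no leaf read on day 11.

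Without the root criterion, 322 high-confidence genes were at 0 in the 9 earlier leaf libraries and read in all day 11 leaves, and 186 of them had a mean under 1 CPM in roots. Their leaf level went with the root level. At 1 CPM or more in day 11 leaves there were 113 such genes, of which 32 (28.3%) had 100 CPM or more in roots. At 5 CPM it was 30 of 49 (61.2%), at 10 CPM 27 of 39 (69.2%) and at 50 CPM 24 of 25 (96.0%). Among all high-confidence genes at the same leaf levels the shares were 2.46%, 3.75%, 5.33% and 21.6%. The gene at 50 CPM or more that was not high in roots was TraesCS3D02G495600 on 3D, with 2181, 2615 and 1421 leaf counts and a leaf level 267% of its root level. The shares rest on the same libraries that chose the 35 genes and are a description.

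**Figure D5:**
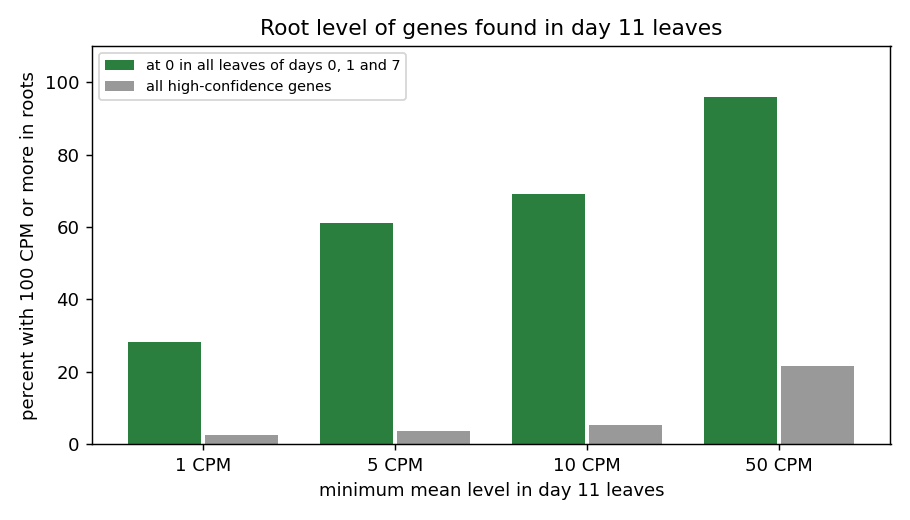
Percent of genes with 100 CPM or more in roots, by minimum mean level in day 11 leaves, for genes at 0 in all leaves of days 0, 1 and 7 (green) and for all high-confidence genes (grey). The green bars climb from 28.3% at 1 CPM to 96.0% at 50 CPM, and the grey bars from 2.46% to 21.6%.

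Genes next to the 35 were chosen by identifier number, so that they can be tested between day 11 and day 7 leaves. Their values entered only in that members, which the rule had taken by level, were left out. Calls came from edgeR's quasi-likelihood test over the 12 leaf libraries, at a Benjamini-Hochberg adjusted p under 0.05 over 62841 genes. Those were drawn from high- and low-confidence models together, whereas the lists set beside them hold high-confidence models only. On day 11 the level was above that of day 7 for 8.74% of all genes tested and below it for 13.2%, 21.9% together, with a median log2 fold change of -0.07. This balance depended on the fit. With only the 6 libraries of days 7 and 11, 12.8% were higher and 11.7% lower, with a median of 0.02. Of the 35 genes, 30 passed the filter on low counts and all 30 were called higher, which their choice had fixed. The 302 high-confidence genes within 500 identifier numbers of a member included 152 that could be tested. Of these, 20 (13.2%) were higher and 22 (14.5%) lower, with a median log2 fold change of -0.06. With only the 6 libraries 22 neighbours were higher and 17 lower, and the median was 0.02. The number of higher neighbours fell to 9 (5.96%) without plant 1, where the share over all genes fell to 2.61%. It fell to 4 (2.61%) without plant 2, where the share over all genes was 1.55%. Among the genes directly adjacent to a member that were not members themselves, 8 of 32 tested were higher. These included genes abundant in roots that are described below, such as TraesCS1B02G300600 and TraesCS4B02G320900. Among all tested genes with 100 CPM or more in roots that were not members, 30.7% were higher. The number of adjacent genes was not computed with a plant left out.

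The largest increases among the neighbours were in genes that, like the members, had no reads on day 7. TraesCS4B02G131300, next to TraesCS4B02G131400, had 1074 counts over the day 11 leaves, against 0 over the day 7 leaves (17.2 ± 8.34 CPM on day 11, SD, n = 3; edgeR adjusted p = 0.0015). Its root level was 7.78 ± 0.576 CPM, so that unlike its neighbour it was no abundant root gene. TraesCS3B02G068400, next to TraesCS3B02G068500, had 764 counts on day 11, against 0 on day 7 (12.3 ± 7.65 CPM on day 11, SD, n = 3; edgeR adjusted p = 0.00597). Its call was lost with DESeq2 (adjusted p = 0.0568) and without plant 2 (edgeR adjusted p = 0.0703). The largest decreases lay on 4B beside the same member. TraesCS4B02G131500 had 22.8 ± 9.70 CPM on day 11 and 98.3 ± 20.7 CPM on day 7 (SD, n = 3 each; edgeR log2 ratio -2.38, SE 0.43, adjusted p = 0.00287; 0.0517 without plant 1). TraesCS4B02G131700 had 8.05 ± 0.924 CPM on day 11 and 27.1 ± 12.2 CPM on day 7 (SD, n = 3 each; edgeR log2 ratio -2.03, SE 0.38, adjusted p = 0.00382; 0.0734 without plant 2). Neighbours of 1 member thus changed in both directions.

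The group 1 set had a like arrangement one step further along each chromosome, which was noticed after the values were seen. The models directly after its members, TraesCS1A02G291200, TraesCS1B02G300600 and TraesCS1D02G289800, were also abundant in roots, at 448 ± 38, 816 ± 13.8 and 750 ± 60.6 CPM (SD, n = 3 each). Unlike the members they were read in every earlier leaf group. TraesCS1B02G300600 had 68.1, 65.3 and 15.5 CPM in day 11 leaves and 8.18, 6.49 and 9.68 CPM in day 7 leaves (edgeR log2 ratio 2.34, SE 0.45, adjusted p = 0.00428). TraesCS1D02G289800 had 48.1 ± 29.0 CPM on day 11 and 8.24 ± 0.747 CPM on day 7 (SD, n = 3 each; edgeR adjusted p = 0.00477). TraesCS1A02G291200 had 36.8 ± 17.7 CPM on day 11 and 8.33 ± 2.02 CPM on day 7 (SD, n = 3 each; edgeR adjusted p = 0.00352). Each of these calls against day 7 was lost without plant 1 (edgeR adjusted p = 0.0964 for the B gene, 0.102 for the D gene and 0.0973 for the A gene) and without plant 2 (0.128, 0.134 and 0.109). Day 0 leaves held 20.6 and 20.0 CPM of the B and D genes, and against day 0 neither was called (edgeR adjusted p = 0.16 and 0.157; 0.00905 and 0.0075 without plant 3). The A gene stood at 12.3 ± 1.36 CPM on day 0 (SD, n = 3) and was called higher on day 11 (edgeR log2 ratio 1.10, adjusted p = 0.0228), a call lost when days 0 and 11 were fitted alone (0.0618), without plant 1 (0.15) or without plant 2 (0.255). Plant 3 was low in the leaves for these genes too, at 0.347, 0.232 and 0.227 of the mean of plants 1 and 2.

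A neighbour on 4B and one on 4D, likewise singled out after their values were seen, were near 0 in earlier leaves and abundant in roots. TraesCS4B02G320900 had 15.9, 15.4 and 11.4 CPM in day 11 leaves, against 1 count over the day 7 leaves, with 342 ± 32.6 CPM in roots (SD, n = 3). TraesCS4D02G317400 had 7.83, 10.3 and 5.74 CPM in day 11 leaves, against 0.171 CPM in plant 1 and 0 in plants 2 and 3 on day 7, with 305 ± 27.9 CPM in roots (SD, n = 3). Both were called (edgeR adjusted p = 6.32e-05 and 0.00274; the second 0.0706 without plant 2), and 3 and 10 counts in the earlier leaf libraries kept them out of the 35.

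Possible copies of the members on the other subgenomes were taken as genes of the same group within 0.02 of a member's relative position and with 100 CPM or more in roots that were not members themselves. There were 89, of which 80 could be tested. On day 11, 24 of these (30.0%) were higher and 13 (16.3%) lower than on day 7, with a median log2 fold change of 0.15. Among all 1044 tested genes with 100 CPM or more in roots that were not members, 30.7% were higher and 19.0% lower, with a median of 0.12. The share among the candidate copies was thus near that of root-abundant genes as a whole. The candidates were taken by position and root level only. They include genes far along 4A, such as TraesCS4A02G434800 at a relative position of 0.870, where the A copies of 4B and 4D genes can lie on 5A. How many candidates are copies was not tested, so the share cannot be read as that of copies. Without plant 2, 9 of the 80 were higher (11.3%), where the share over all genes fell to 1.55%. The share over the other root-abundant genes was not computed for that fit. Against day 0, 34 of the 80 were higher and 19 lower, which is 42.5% and 23.8%. Over the other tested genes with 100 CPM or more in roots it was 43.2% higher and 23.6% lower, and over all genes tested 21.6% and 22.7%, or 44.3% in either direction.

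The candidate copies with the largest changes show how wide this list is. TraesCS4D02G298300 on 4D had 47.7 ± 6.34 CPM in day 11 leaves and 0.105 ± 0.0484 CPM in day 7 leaves (SD, n = 3 each; edgeR log2 ratio 8.46, SE 0.51, adjusted p = 2.86e-05), and 189 ± 73.8 CPM in roots. TraesCS1A02G280700 on 1A had 99.8 ± 39.4 CPM on day 11 and 2.56 ± 2.05 CPM on day 7 (SD, n = 3 each; edgeR log2 ratio 5.01, SE 0.72, adjusted p = 0.000834). TraesCS6B02G450200 had 40.0 ± 9.09 CPM on day 11 and 112 ± 19.3 CPM on day 7 (SD, n = 3 each; edgeR log2 ratio -1.75, SE 0.21, adjusted p = 0.000324). TraesCS6B02G450000 had 80.3 ± 18.0 CPM on day 11 and 211 ± 29.4 CPM on day 7 (SD, n = 3 each; edgeR log2 ratio -1.66, SE 0.19, adjusted p = 0.000245). In TraesCS4D02G298300 plant 3 was the highest in leaves, at 1.17 times the mean of plants 1 and 2, the opposite of the members. A low plant 3 was not confined to members, however. Of the 74 candidate copies at 5 CPM or more in day 11 leaves, 8 (10.8%) stood below 0.5 of that mean, with a median of 0.953 over the 74. TraesCS1A02G280700 was among the 8, at 0.444. The share was 7.22% over all root-abundant genes that were not members and 1.89% over all high-confidence genes.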

How the data were processed

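The authors deposited raw counts for 15 libraries in a single table, high- and low-confidence models together and not normalized. The submitters' processing notes name featureCounts 2.0.3, StringTie 2.2.3, HISAT2 2.2.1, Trim Galore 0.6.7, MultiQC 1.11 and FastQC 0.74. Libraries came from a stranded mRNA kit per the labels' protocols. The sources used here do not give the genome build or how strand and multiply mapped reads were treated, so counts of near-identical copies, overlapping and antisense models are uncertain. Columns that belong to no sample numbered 0.

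CPM were computed from the raw library totals. Leaf libraries were tested together by the quasi-likelihood test of edgeR 4.0.16 (R 4.3.3) after TMM scaling and filterByExpr, with 62841 genes tested and a common biological coefficient of variation of 0.343. The step was tested on simulated data. The sample titles number the replicates from 1 to 3, and the column names carry 3 numbers that recur in each group. These numbers were read as 3 plants. That same-numbered libraries come from 1 plant is inferred from them and not stated in the titles or column names. The main fit has no plant term, and the plant entered as a block only in an alternative. Deviations from the group mean correlated at -0.237 to 0.294 between leaf libraries of the same plant number (median -0.003, 18 pairs). Between different plant numbers they correlated at -0.428 to 0.361 (median -0.011, 36 pairs). No replicates agreed within sampling noise (chi-square per gene of 4.30 or more).

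The 35 genes, the lists and the rules were chosen with earlier results of these data known. Named among the members were the 8 with the highest leaf levels, the 4 highest and 4 lowest leaf shares, tandem groups, sets with all subgenomes, and genes at the margins of the rule. Named among other genes were the largest changes, 2 in each direction per list, at 5 CPM or more and with 1 direction in all plants. The neighbour list was to hold low-confidence models too, but these carry numbers of a separate series (up to 623600 on 6A, against 421700 for high-confidence models), so it holds high-confidence models only. The gene with no chromosome is in no list by position. Alternatives were RLE factors, no filter, DESeq2 1.42.0, the plant as a block, 6 libraries only, each plant left out, and other limits of the rule and windows.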

Additional observations from a re-analysis of the deposited data

Results flagged for a closer look

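Low-confidence gene models were outside the rule, and 3 of the 161371 met its other criteria, with 0 counts in all 9 earlier leaf libraries. TraesCS4A02G127900LC had 1593, 1846 and 591 counts in the day 11 leaves of plants 1, 2 and 3, and its leaf level was 24.1% of its root level. TraesCS2B02G669200LC had 670, 786 and 445 counts and 18.0%, and TraesCS6B02G288100LC had 493, 503 and 103 counts and 10.0%. Plant 3 was the lowest in leaves for all 3, at 0.362, 0.644 and 0.218 of the mean of plants 1 and 2.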

How the results depend on the processing

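The balance of higher and lower calls turned in 2 comparisons. Between day 11 and day 7, 5490 genes were higher and 8277 lower, but 7661 and 6980 with only the 6 libraries compared. Against day 0, 13560 were higher and 14295 lower, but 15354 and 14728 with DESeq2, and 13976 and 13968 with RLE factors. Genes called between day 11 and day 7 leaves numbered 13767, and 3357 to 10884 with 1 plant left out (5149 without plant 1, 3357 without plant 2). Against day 0 they numbered 27855, and 16494 to 22517. Higher neighbours numbered 20, and 4 to 18 with a plant left out (9 without plant 1, 4 without plant 2). The share over all genes fell too, from 8.74% to 2.61% without plant 1, 1.55% without plant 2 and 7.73% without plant 3. Higher neighbours were 11 of 61 tested within 200 identifier numbers and 36 of 300 within 1000, beside 8.74% over all genes. Higher candidate copies numbered 24, and 9 to 29 with a plant left out (9 without plant 2). Within 0.01 of the relative position they were 8 of 47, beside 8.74% over all genes and 30.7% over root-abundant genes that were not members. Sets of copies among the members numbered 5, and 3 within 0.01. With the plant as a block (replicate block) the calls were 11928 and 26503, with 19 neighbours and 25 candidate copies, and none of the calls of the 13 named non-members changed. The rule gave 40 to 45 genes with a plant left out, each time with the 35 among them. Leaving a plant out can only ease the leaf criteria, so a member could drop out only by its root mean. The rule gave 32 genes with TMM-scaled CPM, 43 at 50 CPM and 31 at 200 CPM in roots. It gave 41 with 1 earlier count allowed, 44 with 2 of 3 day 11 libraries, 30 with 10 counts in each, and 3 for low-confidence models. The median leaf-to-root ratio was 0.0764, ran from 0.0588 to 0.0953 with a plant left out, and was 0.0862 with TMM scaling. The cause of these shifts was not tested. Over 8 alternatives the adjusted p of TraesCS3B02G068400 ran from 0.00102 to 0.0703, that of TraesCS4B02G131500 from 3.29e-07 to 0.0517 and that of TraesCS4B02G131700 from 4.97e-06 to 0.0734, and the other 5 genes named by the rule kept their calls in each. The alternatives for 5 more non-members were chosen after seeing the data. Of these TraesCS4B02G320900 kept its call in all 8 (adjusted p up to 0.0131), TraesCS4D02G317400 in 7 (up to 0.0706), and TraesCS1A02G291200, TraesCS1B02G300600 and TraesCS1D02G289800 in 6 (up to 0.109, 0.128 and 0.134).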
